A study of Mus musculus with 4 samples.

Results

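The 56 genes described here encode the machinery of mitosis, from the kinases that start it to the proteins that build the spindle, hold chromosomes at the kinetochore, compact them and divide the cell. They were taken by symbol from a table of 24421 mouse gene symbols, and all 56 were found. They fall into mitotic kinases (10 genes), phosphatases that activate cyclin-dependent kinases (2), regulators of anaphase (4), kinetochore and centromere proteins (11), chromosomal passenger subunits (3), kinesins (8), other spindle and cytokinesis proteins (9), condensin and mitotic chromosome proteins (7) and transcription factors (2).

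RNA was sequenced from livers of mice after hepatectomy. In the gelADSC group (2 libraries) the hepatectomized mice received ADSC, adipose-derived stem cells, carried in fibrin gel, and in the control group (2 libraries) they received the gel without cells. Both groups therefore share the surgery and the gel, and no untouched liver and no group given cells without gel was analysed here. The labels leave out the strain, sex and age of the mice, the time after surgery, the origin of the ADSC and any pooling of livers. No label ties the libraries of a group to separate animals, so p-values measure the spread between libraries, which may be technical. Libraries are called by the number in their column name, 2 and 3 for gelADSC and 1 and 3 for control, and wherever values are paired below they follow that order.

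An adult liver holds few dividing cells, and partial removal of the liver is known to bring hepatocytes back into the cell cycle as a wave of S phase followed by mitosis. Transcripts of mitotic genes are low in resting cells, accumulate in G2 and fall after division. In resting cells the DREAM complex holds many of these promoters silent, and in cycling cells the B-Myb and FoxM1 factors with the MuvB core activate them. The DREAM and MuvB complexes bind the CHR element, which often lies near CCAAT boxes bound by NF-Y. RNA of a whole liver cannot tell more cells in mitosis from more mitotic RNA per cell.

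Values are FPKM, fragments scaled by gene length and library size, and a log2 change is the mean of log2(FPKM + 1) in gelADSC minus that in control, which understates the change of low genes. The libraries held roughly 24400000 (gelADSC 2), 20100000 (gelADSC 3), 19900000 (control 1) and 18100000 (control 3) reads. Pearson correlations across the 11070 tested genes were 0.97 between the gelADSC libraries, 0.98 between the control libraries and 0.88 to 0.92 between groups, as a description of the libraries. A gene was tested where its mean over the 4 libraries was at least 1 FPKM, with limma and a Benjamini-Hochberg adjusted p under 0.05 as the call.

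The promoters were searched for sequences through which many mitotic genes are known to be controlled. RefSeq promoter windows of build GRCm38.p6 were at hand for 47 of the 56 genes, 51 windows in all, since some genes have several start sites. Smc4, Cdc25c, Pbk, Tpx2, Spc24, Incenp, Kif20a, Foxm1 and Aurkb had no window. The 250 bases before the start were searched on both strands for the CHR element, spelled TTTGAA or TTCGAA, for the NF-Y box CCAAT, and for the E2F site, spelled TTTCGCGC or TTTGGCGC. TTCGAA reads the same on both strands and no spelling contains another.

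The 5 windows shown belong to the members with the lowest adjusted p that hold a CHR element. They are Cenpm (chr15:82244337-82244586), Top2a (chr11:99024190-99024439), Mki67 (chr7:135716380-135716629), Cdk1 (chr10:69352913-69353162) and Ckap2l (chr2:129297213-129297462). All 5 genes lie on the minus strand, and each sequence is given 5′ to 3′ in the direction of transcription, ending at the base before the start. Capitals mark CHR elements and NF-Y boxes on either strand. On the reverse strand they read TTCAAA and ATTGG.
Cenpm: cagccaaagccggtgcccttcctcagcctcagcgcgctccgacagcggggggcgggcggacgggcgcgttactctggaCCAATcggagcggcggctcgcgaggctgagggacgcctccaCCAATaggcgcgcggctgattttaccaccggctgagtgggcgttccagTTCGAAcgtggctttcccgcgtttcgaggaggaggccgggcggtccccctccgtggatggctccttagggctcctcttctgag
Top2a: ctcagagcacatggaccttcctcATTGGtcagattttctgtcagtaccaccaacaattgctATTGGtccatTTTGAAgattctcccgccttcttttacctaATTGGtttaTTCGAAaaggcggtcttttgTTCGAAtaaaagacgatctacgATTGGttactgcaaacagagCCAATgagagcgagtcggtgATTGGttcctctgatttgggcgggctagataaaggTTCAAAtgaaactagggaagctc
Mki67: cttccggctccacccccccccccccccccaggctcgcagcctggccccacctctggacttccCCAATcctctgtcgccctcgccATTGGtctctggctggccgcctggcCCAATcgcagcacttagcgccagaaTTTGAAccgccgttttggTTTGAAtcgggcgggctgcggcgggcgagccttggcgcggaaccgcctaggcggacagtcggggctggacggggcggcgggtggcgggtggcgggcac
Cdk1: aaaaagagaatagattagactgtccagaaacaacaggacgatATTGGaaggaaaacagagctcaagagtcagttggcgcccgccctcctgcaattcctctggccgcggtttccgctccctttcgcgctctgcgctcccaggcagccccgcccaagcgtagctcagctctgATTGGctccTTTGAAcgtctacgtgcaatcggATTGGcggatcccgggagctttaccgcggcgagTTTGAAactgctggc
Ckap2l: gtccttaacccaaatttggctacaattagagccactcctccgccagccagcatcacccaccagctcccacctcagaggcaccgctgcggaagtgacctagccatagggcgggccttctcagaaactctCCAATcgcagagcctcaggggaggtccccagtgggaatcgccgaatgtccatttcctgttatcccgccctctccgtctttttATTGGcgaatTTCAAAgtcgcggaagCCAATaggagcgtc

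In the Cenpm window the single CHR element ended 77 bases before the start, downstream of 2 CCAAT boxes. The Top2a window held 4 CHR elements, with 173, 134, 114 and 17 bases between element and start, among 6 NF-Y boxes. Mki67 held its pair of CHR elements 110 and 92 bases from the start. Cdk1 held elements at 65 and 9 bases, each downstream of an ATTGG, and an E2F site 123 bases from the start. Ckap2l held its CHR element on the reverse strand, 24 bases from the start and between NF-Y boxes at 35 and 9 bases.

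A CHR element lay in 20 of the 51 member windows (39.2%), in 1313 of 10710 windows of tested genes (12.3%) and in 5633 of all 32851 windows (17.1%). NF-Y boxes lay in 37 member windows (72.5%), in 35.3% of the windows of tested genes and in 33.8% of all windows. Both elements together were found in 18 member windows (35.3%), against 4.58% of those of tested genes and 6.02% of all. The E2F spellings were rare, in 3 member windows (5.88%) and 1.30% of the windows of tested genes. The CHR element was common in the condensin and chromosome group (5 of 6 windows), the anaphase regulators (3 of 4), the kinesins (4 of 7) and the spindle and cytokinesis proteins (5 of 10). In the kinases it lay in 2 of 8 windows, those of Cdk1 and Bub1b, and in the kinetochore group in 1 of 12, that of Cenpm. Roles were not tested against each other. In the 50 bases next to the start there were 21.6 CHR matches per 100 member windows, against 3.02 per 100 other windows, and 52.9 NF-Y matches against 9.62. A match is a run of letters, and factor binding was not measured.

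**Figure D1:**
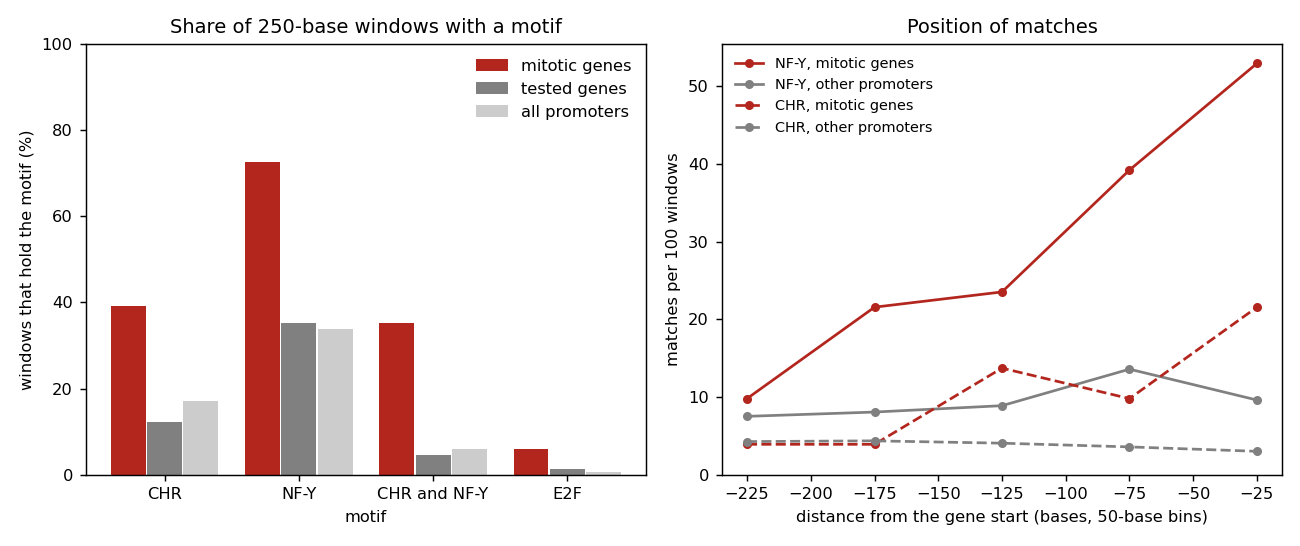
Left, bars give the percentage of 250-base windows that hold each motif, for mitotic genes (39.2% with CHR), tested genes (12.3%) and all promoters (17.1%). Right, lines give NF-Y and CHR matches per 100 windows in bins of 50 bases before the start, for 51 member windows and the other 32800. Member windows stand above the others most in the bin next to the start, with 21.6 against 3.02 CHR matches and 52.9 against 9.62 NF-Y matches per 100 windows.

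As a group these mitotic genes read higher in gelADSC livers, and by far the most so in gelADSC library 3. Both gelADSC libraries lay above both control libraries for 55 of the 56 members, the exception being Pttg1. The same held for 20.4% of the 17563 genes with a value above 0 in a library, and both gelADSC libraries lay below both controls for 38.9% of them and for 0 members. With a group mean at least 2-fold higher as well there were 54 members, against 10.5% of genes. The members were chosen with earlier results of these data known, so these shares are a description and not a test. The summed FPKM of the members was 96.9 in gelADSC library 2 and 618 in gelADSC library 3, against 44.0 and 43.1 in the controls. The median member stood 4.07-fold (gelADSC library 2) and 31.2-fold (gelADSC library 3) above the control mean. In gelADSC library 2, 18 members were less than 2-fold above the control mean, while in gelADSC library 3, 54 were at least 5-fold above it.

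**Figure D2:**
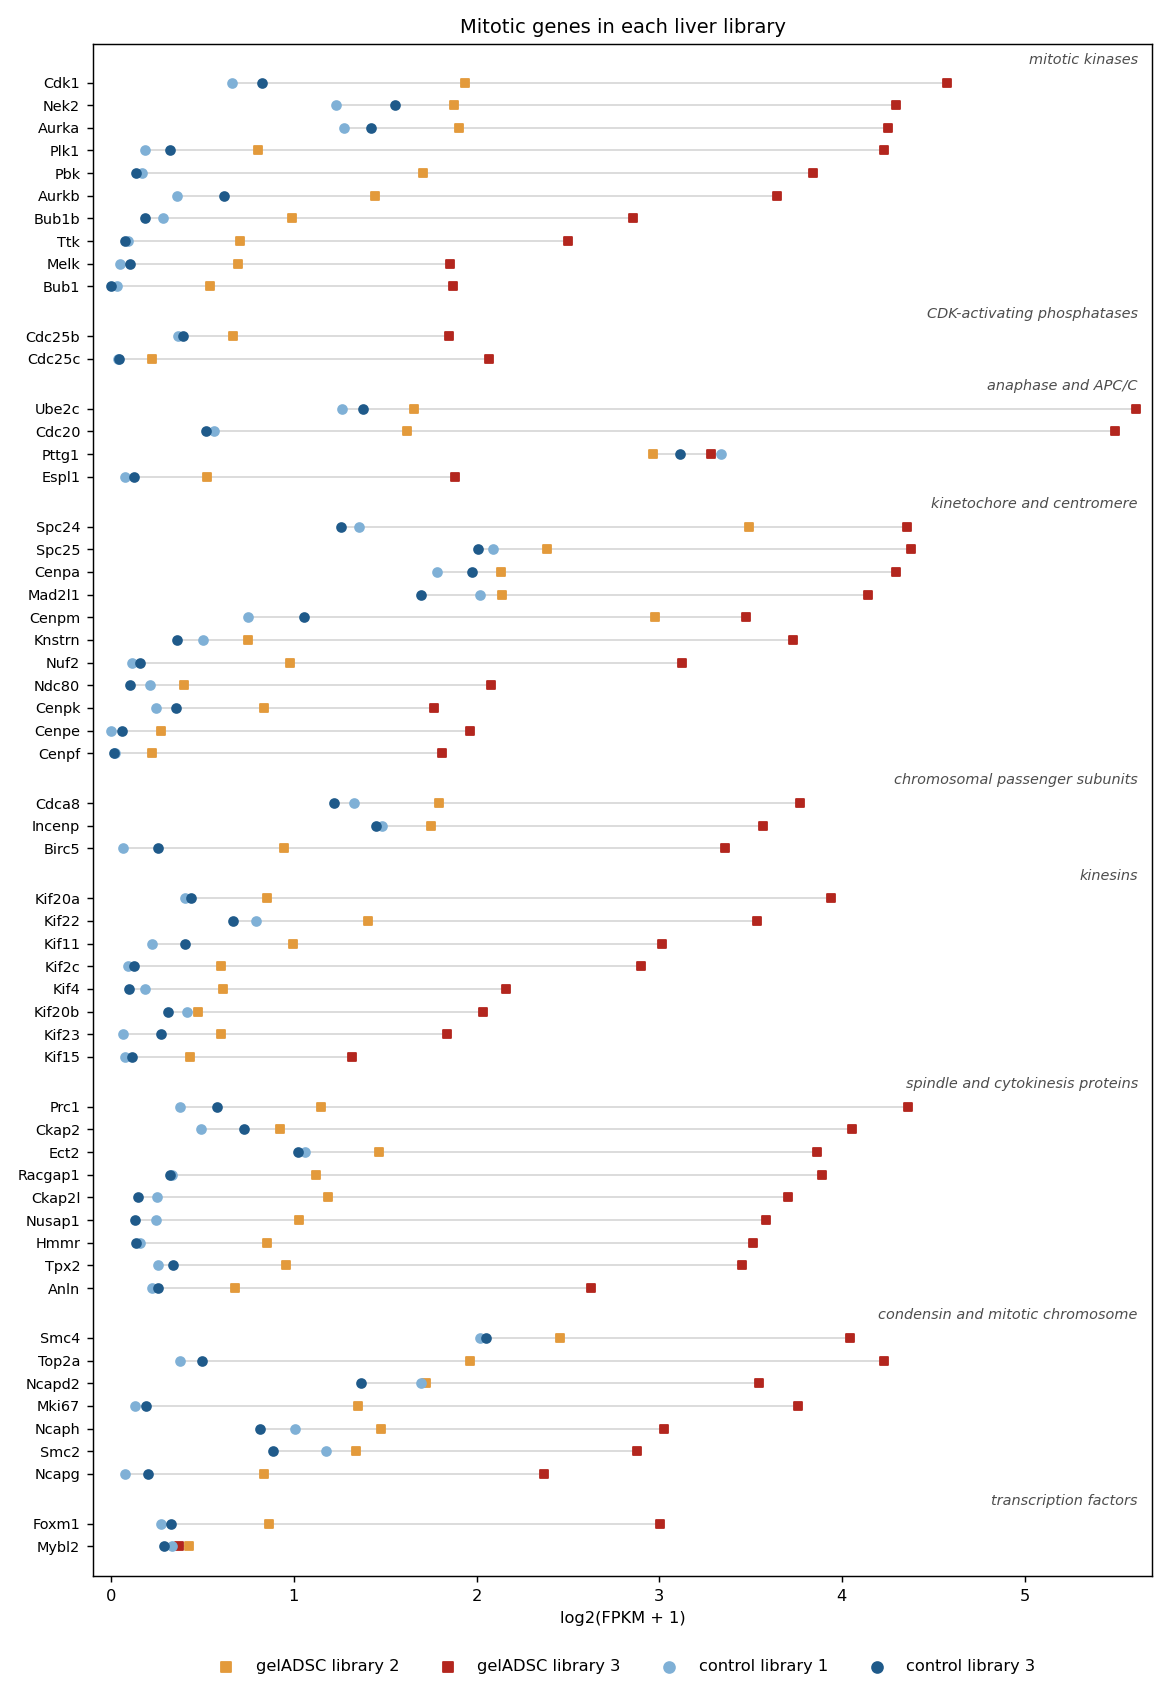
FPKM of each of the 56 members in each library, on a log2(FPKM + 1) scale and ordered by role, with gelADSC libraries marked apart from control libraries. The points of gelADSC library 3 lie furthest right for all members but Pttg1 and Mybl2, and those of gelADSC library 2 lie between them and the controls for most.

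Of the 44 members with a mean of at least 1 FPKM, limma called 12 higher and 0 lower in gelADSC, against 6.92% higher and 17.5% lower of all 11070 tested genes. At an unadjusted p under 0.05, 41 members were higher and 0 lower, against 10.4% and 29.5% of tested genes. The 12 called members were Cdk1, Aurkb, Bub1b, Pbk, Cenpm, Spc24, Nuf2, Ckap2l, Nusap1, Top2a, Mki67 and Ncapg. A further 22 had an adjusted p between 0.05 and 0.1, and 10 had one of at least 0.1. The control mean was under 1 FPKM for 30 of the 44 tested members and for 11 of the 12 called, all but Spc24, so these passed the filter only through gelADSC. For 17 the other 3 libraries were all under 1 FPKM and gelADSC library 3 alone carried them past it. Such members had to differ, so the counts over the 44, by role too, are a description and nothing is read from their share. With no filter, where all 56 enter, 2 were called higher, against 2.99% of genes. The 12 members not tested were Bub1, Melk, Cdc25b, Cdc25c, Espl1, Cenpe, Cenpf, Cenpk, Ndc80, Kif15, Kif23 and Mybl2, and 11 of these had at least 1 FPKM in gelADSC library 3. The median log2 change of all 56 was 1.63, where that of all tested genes was -0.25, so that the members stood 1.88 above that shift.

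The 10 kinases had a median log2 change of 1.71, and limma called 4 of the 8 tested, each with a control mean under 1 FPKM, against 6.92% of all tested genes. Cdk1, the cyclin-dependent kinase that drives entry into mitosis, read 2.82 and 22.8 FPKM in gelADSC, against 0.579 and 0.772 FPKM in control (log2 change 2.51, SE 0.68, limma adjusted p = 0.0303). Behind these stood 197 and 1314 reads in gelADSC, against 33 and 40 reads in control. The groups did not overlap, and gelADSC library 3 stood far above gelADSC library 2. Aurkb, the catalytic subunit of the chromosomal passenger complex, read 1.72 and 11.5 FPKM in gelADSC, against 0.282 and 0.536 FPKM in control (log2 change 2.05, SE 0.58, limma adjusted p = 0.0353). Bub1b, a spindle checkpoint protein that restrains anaphase, read 0.983 and 6.24 FPKM in gelADSC, against 0.219 and 0.135 FPKM in control (log2 change 1.69, SE 0.51, limma adjusted p = 0.0428). Both were under 1 FPKM in the controls and several times higher in gelADSC library 3 than in gelADSC library 2. Pbk, a mitotic serine and threonine kinase, read 2.27 and 13.4 FPKM in gelADSC, against 0.122 and 0.101 FPKM in control (log2 change 2.62, SE 0.56, limma adjusted p = 0.0131). Only 4 and 3 reads carried the control values of Pbk, against 91 and 443 in gelADSC.

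These 4 calls ended without either control library and also in settings that kept all 4 libraries. With a pseudocount of 5 the limma adjusted p was 0.0764 for Cdk1, 0.0822 for Aurkb, 0.0899 for Bub1b and 0.0506 for Pbk. The calls also ended with no filter and with the median ratio scaling and quantile normalization described below. Without control library 1 the limma adjusted p was 0.250 for Cdk1, 0.272 for Aurkb, 0.252 for Bub1b and 0.167 for Pbk, and without control library 3 it was 0.146, 0.146, 0.186 and 0.0973 in the same order. Without gelADSC library 2 the log2 changes were 3.83 (Cdk1), 3.16 (Aurkb), 2.62 (Bub1b) and 3.69 (Pbk). Without gelADSC library 3 they were 1.19, 0.953, 0.753 and 1.56 in the same order. In such fits the spread comes from the control pair alone, so they cannot tell whether a call holds in each gelADSC library. Aurka, which matures centrosomes and helps to build the spindle, read 2.74 and 18.0 FPKM in gelADSC, against 1.42 and 1.68 FPKM in control (log2 change 1.73, SE 0.61, limma adjusted p = 0.0700). Nek2, a kinase of centrosome separation, read 2.67 and 18.6 FPKM in gelADSC, against 1.35 and 1.94 FPKM in control (log2 change 1.69, SE 0.63, limma adjusted p = 0.0817). For both, gelADSC library 2 lay little above the controls, and neither passed the threshold.

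Plk1, the polo-like kinase that acts from mitotic entry to cytokinesis, differed widely between the gelADSC libraries. It read 0.744 and 17.8 FPKM in gelADSC, against 0.137 and 0.251 FPKM in control, from 40 and 788 reads against 6 and 10 (limma adjusted p = 0.0880). Its value in gelADSC library 3 was 23.9 times that in gelADSC library 2, with a 95% counting interval of 17.4 to 33.7. Ttk, a kinase of the spindle checkpoint, read 0.631 and 4.65 FPKM in gelADSC, against 0.0644 and 0.0532 FPKM in control (limma adjusted p = 0.0544). Bub1, a checkpoint kinase of the kinetochore, and Melk, a kinase whose level follows the cell cycle, were below the filter. Bub1 had 48 and 232 reads in gelADSC, against 2 and 0 in control. Melk read 0.619 and 2.62 FPKM in gelADSC, against 0.0344 and 0.0758 FPKM in control.

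Cdc25b and Cdc25c, phosphatases that remove the inhibitory phosphates from cyclin-dependent kinases, were both too low to test. Cdc25b read 0.585 and 2.60 FPKM in gelADSC, against 0.287 and 0.315 FPKM in control. Cdc25c read 0.169 and 3.19 FPKM in gelADSC, against 0.0258 and 0.0284 FPKM in control, and 1 read carried each control value. Cdc25c was 18.9 times higher in gelADSC library 3 than in gelADSC library 2, with a counting interval of 9.31 to 44.8, while Cdc25b was 4.44 times higher.

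Among the regulators of anaphase, limma called 0 of 3 tested members. At an unadjusted p under 0.05, 2 of the 3 were higher, against 10.4% of all tested genes. Of these, Cdc20 had a control mean under 1 FPKM and passed the filter only through gelADSC, so nothing is read from that share. Cdc20, the activator of the anaphase-promoting complex (APC/C), read 2.07 and 44.0 FPKM in gelADSC, against 0.478 and 0.433 FPKM in control (log2 change 3.01, SE 0.97, limma adjusted p = 0.0535). Ube2c, the ubiquitin-conjugating enzyme that works with the APC/C, read 2.16 and 47.8 FPKM in gelADSC, against 1.40 and 1.60 FPKM in control (log2 change 2.31, SE 0.98, limma adjusted p = 0.118). These were the highest members in gelADSC library 3, 21.3 and 22.1 times their level in gelADSC library 2, and that gap went into their large standard errors. Espl1, the separase that cleaves cohesin, read 0.439 and 2.69 FPKM in gelADSC, against 0.0530 and 0.0916 FPKM in control, and was not tested.

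Pttg1, the securin that holds separase inactive until anaphase, did not follow the other members. It read 6.81 and 8.74 FPKM in gelADSC, against 9.12 and 7.66 FPKM in control (log2 change -0.10, SE 0.21, limma adjusted p = 0.753). The groups overlapped, and Pttg1 was the highest of the 56 in both controls. Its change took either sign among the alternatives, 0.16 with median ratio scaling and -0.26 without gelADSC library 3, and was not called in any of the 13 settings run. Read counts were 289 and 306 in gelADSC, against 316 and 241 in control.

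The kinetochore and centromere proteins held the calls that least depended on a single library. Spc24, a subunit of the Ndc80 complex that binds microtubules, read 10.3 and 19.5 FPKM in gelADSC, against 1.56 and 1.39 FPKM in control (log2 change 2.62, SE 0.29, limma adjusted p = 0.000742). Cenpm, a subunit of the inner kinetochore, read 6.88 and 10.1 FPKM in gelADSC, against 0.680 and 1.08 FPKM in control (log2 change 2.32, SE 0.25, limma adjusted p = 0.000635). Both gelADSC libraries stood several times above the controls, and the gelADSC libraries were closer to each other than for any other called member. Spc24 differed from the control mean by 2.19 (gelADSC library 2) and 3.05 (gelADSC library 3) on the log2 scale, and Cenpm by 2.08 and 2.57. Their means ± SD were 14.9 ± 6.53 FPKM in gelADSC and 1.48 ± 0.120 FPKM in control for Spc24 (n = 2 each), and 8.50 ± 2.30 FPKM in gelADSC and 0.881 ± 0.284 FPKM in control for Cenpm (n = 2 each). Reads numbered 338 and 530 for Spc24 in gelADSC, against 42 and 34 in control, and 223 and 271 for Cenpm in gelADSC, against 18 and 26 in control. Spc24 and Cenpm were the only members called in all 13 settings, with adjusted p values of at most 0.0402 and 0.0335, both reached without control library 1.

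Nuf2, another subunit of the Ndc80 complex, read 0.971 and 7.74 FPKM in gelADSC, against 0.0835 and 0.115 FPKM in control (log2 change 1.92, SE 0.57, limma adjusted p = 0.0410). Its adjusted p was 0.268 without control library 1 and 0.174 without control library 3. Spc25, which pairs with Spc24 in the same complex, read 4.22 and 19.8 FPKM in gelADSC, against 3.26 and 3.02 FPKM in control (log2 change 1.33, SE 0.52, limma adjusted p = 0.0956). The Ndc80 complex subunits thus had unlike values: in gelADSC library 2 Spc24 stood far above the controls while Spc25 stood little above them. Ndc80 itself was below the filter, with 0.317 and 3.22 FPKM in gelADSC, against 0.160 and 0.0753 FPKM in control. Cenpa, the histone variant that marks the centromere, read 3.40 and 18.7 FPKM in gelADSC, against 2.44 and 2.93 FPKM in control (log2 change 1.34, SE 0.57, limma adjusted p = 0.116). The other 5 of the group were Cenpe, Cenpf, Cenpk, Knstrn and Mad2l1. Cenpk, an inner kinetochore subunit, was not tested and read 0.785 and 2.40 FPKM in gelADSC, against 0.183 and 0.277 FPKM in control. Knstrn, a kinetochore protein that also binds the spindle, read 0.683 and 12.3 FPKM in gelADSC, against 0.418 and 0.283 FPKM in control (limma adjusted p = 0.113). Its level in gelADSC library 3 was 18.0 times that in gelADSC library 2, and in gelADSC library 2 it lay little above the controls. Mad2l1, the checkpoint protein that inhibits Cdc20, read 3.40 and 16.7 FPKM in gelADSC, against 3.05 and 2.24 FPKM in control (limma adjusted p = 0.111). Cenpe, the kinesin of the kinetochore, and Cenpf, a large protein of its outer layer, had 40 and 45 reads in gelADSC library 2 and 457 and 561 in gelADSC library 3, with at most 6 reads in a control.

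Of the chromosomal passenger subunits, which guide Aurkb along chromosomes and to the midzone, limma called 0 of 3. At an unadjusted p under 0.05 all 3 were higher, against 10.4% of all tested genes. Of these, Birc5 had a control mean under 1 FPKM and passed the filter only through gelADSC, so nothing is read from that share. Birc5, or survivin, read 0.924 and 9.26 FPKM in gelADSC, against 0.0441 and 0.194 FPKM in control (log2 change 1.99, SE 0.63, limma adjusted p = 0.0512). Cdca8, or borealin, read 2.47 and 12.7 FPKM in gelADSC, against 1.51 and 1.32 FPKM in control (log2 change 1.51, SE 0.53, limma adjusted p = 0.0675). Incenp, the scaffold subunit, read 2.37 and 10.9 FPKM in gelADSC, against 1.79 and 1.73 FPKM in control (log2 change 1.19, SE 0.49, limma adjusted p = 0.106). The order of the libraries was the same for all 3, with gelADSC library 3 highest and gelADSC library 2 next.

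Kinesins, the motors that slide and cross-link spindle microtubules, had 0 of 6 tested members called by limma. At an unadjusted p under 0.05, 5 of the 6 were higher, against 10.4% of all tested genes. All 6 had a control mean under 1 FPKM and passed the filter only through gelADSC, so nothing is read from that share. Kif11, the motor that pushes spindle poles apart, read 0.995 and 7.08 FPKM in gelADSC, against 0.167 and 0.321 FPKM in control (log2 change 1.69, SE 0.54, limma adjusted p = 0.0525). Kif22, a motor that moves chromosomes along microtubules, read 1.65 and 10.6 FPKM in gelADSC, against 0.729 and 0.589 FPKM in control (log2 change 1.74, SE 0.56, limma adjusted p = 0.0542). Kif20a, a motor of the midzone, read 0.808 and 14.3 FPKM in gelADSC, against 0.321 and 0.354 FPKM in control (log2 change 1.98, SE 0.78, limma adjusted p = 0.0965). The 3 missed the threshold, and Kif20a was 17.7 times higher in gelADSC library 3 than in gelADSC library 2. Kif2c, Kif4, Kif15, Kif20b and Kif23 read 0.348 to 0.531 FPKM in gelADSC library 2 and 1.49 to 6.48 FPKM in gelADSC library 3, against 0.0440 to 0.334 FPKM in the controls. Kif15 and Kif23 were not tested, and the adjusted p of the other three lay between 0.0709 and 0.167.

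The spindle and cytokinesis proteins had the largest median log2 change of the 9 role groups, 2.04. There limma called 2 of 9, both with a control mean under 1 FPKM, against 6.92% of all tested genes. Ckap2l, a spindle protein of dividing cells, read 1.28 and 12.0 FPKM in gelADSC, against 0.192 and 0.106 FPKM in control (log2 change 2.25, SE 0.65, limma adjusted p = 0.0380). Nusap1, which bundles spindle microtubules, read 1.04 and 11.0 FPKM in gelADSC, against 0.186 and 0.0933 FPKM in control (log2 change 2.12, SE 0.66, limma adjusted p = 0.0490). Both calls ended without control library 1 (adjusted p = 0.252 and 0.280) and without control library 3 (0.182 and 0.207). Prc1, which cross-links microtubules at the midzone, read 1.22 and 19.6 FPKM in gelADSC, against 0.299 and 0.493 FPKM in control (log2 change 2.28, SE 0.81, limma adjusted p = 0.0729). Ckap2, a relative of Ckap2l at the spindle poles, read 0.898 and 15.6 FPKM in gelADSC, against 0.405 and 0.658 FPKM in control (log2 change 1.88, SE 0.80, limma adjusted p = 0.116). Prc1 and Ckap2 were highest by far in gelADSC library 3. Ect2, which activates RhoA for cleavage, read 1.76 and 13.5 FPKM in gelADSC, against 1.08 and 1.03 FPKM in control (log2 change 1.62, SE 0.62, limma adjusted p = 0.0883). Tpx2, Anln, Racgap1 and Hmmr read 0.597 to 1.18 FPKM in gelADSC library 2 and 5.18 to 13.8 FPKM in gelADSC library 3, against 0.0988 to 0.266 FPKM in the controls, with adjusted p between 0.0555 and 0.0818.

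Condensin and mitotic chromosome proteins had the narrowest gap between the gelADSC libraries of the larger groups, a median of 4.65 times. There limma called 3 of 7, each with a control mean under 1 FPKM, against 6.92% of all tested genes. Top2a, the topoisomerase that untangles sister chromatids, read 2.90 and 17.8 FPKM in gelADSC, against 0.298 and 0.413 FPKM in control (log2 change 2.66, SE 0.59, limma adjusted p = 0.0153). Mki67, the protein Ki-67 that coats mitotic chromosomes and marks cycling cells, read 1.55 and 12.5 FPKM in gelADSC, against 0.0946 and 0.143 FPKM in control (log2 change 2.39, SE 0.63, limma adjusted p = 0.0277). Its reads numbered 381 and 2547 in gelADSC, against 19 and 26 in control. Ncapg, a condensin I subunit, read 0.787 and 4.16 FPKM in gelADSC, against 0.0543 and 0.149 FPKM in control (log2 change 1.46, SE 0.44, limma adjusted p = 0.0416). For all 3 the controls were close to 0 and gelADSC library 2 lay well above them. Without control library 1 their adjusted p was 0.185, 0.230 and 0.264, and without control library 3 it was 0.1, 0.141 and 0.154.

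The other condensin genes started from higher control levels and were not called. Smc4, an ATPase shared by both condensins, read 4.49 and 15.5 FPKM in gelADSC, against 3.05 and 3.15 FPKM in control (log2 change 1.22, SE 0.44, limma adjusted p = 0.0735). Ncapd2, a condensin I subunit, read 2.30 and 10.7 FPKM in gelADSC, against 2.25 and 1.58 FPKM in control (log2 change 1.10, SE 0.50, limma adjusted p = 0.135). In gelADSC library 2 Ncapd2 was level with control library 1. Smc2, the partner of Smc4, read 1.53 and 6.34 FPKM in gelADSC, against 1.26 and 0.849 FPKM in control (limma adjusted p = 0.103). Ncaph, the subunit that bridges the ATPases, read 1.78 and 7.15 FPKM in gelADSC, against 1.01 and 0.758 FPKM in control (limma adjusted p = 0.0553).

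The transcription factors that act on these promoters differed from each other. Foxm1, an activator of genes of G2 and mitosis, read 0.817 and 7.03 FPKM in gelADSC, against 0.207 and 0.253 FPKM in control (log2 change 1.63, SE 0.57, limma adjusted p = 0.0673). Mybl2, which encodes B-Myb, read 0.343 and 0.295 FPKM in gelADSC, against 0.258 and 0.224 FPKM in control, and was not tested. It was low in all 4 libraries, with 31 and 22 reads in gelADSC against 19 and 15 in control, and was the only member lower in gelADSC library 3 than in gelADSC library 2. The interval of that ratio, 0.474 to 1.53 around 0.859, includes 1.

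The gap between the gelADSC libraries ran through nearly the whole set. Gene by gene, gelADSC library 3 was above gelADSC library 2 for 55 of 56 members, against 57.9% of genes above 0. On log2(FPKM + 1) the members stood a median of 0.52 (gelADSC library 2) and 2.60 (gelADSC library 3) above the control mean, whereas all tested genes stood at -0.29 and -0.20. The median member difference, gelADSC library 3 minus gelADSC library 2, was 2.00, against 0.10 for all tested genes, and control library 3 minus control library 1 was 0.03 for the members, against -0.21. A difference of at least 2 was reached by 28 members and by 53 genes in all (0.302% of genes above 0). These values compare single libraries and carry no test.

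**Figure D3:**
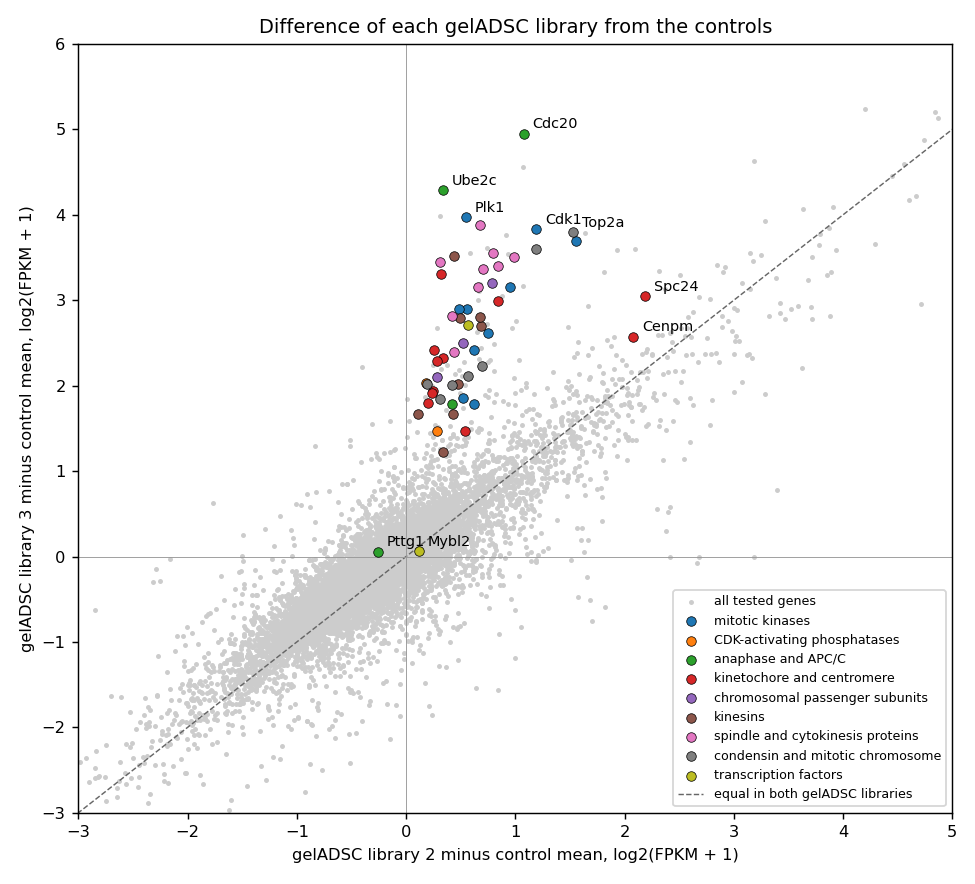
Difference from the control mean on log2(FPKM + 1) in gelADSC library 2 (x axis) and in gelADSC library 3 (y axis), for the tested genes and for the members. Most members lie well above the diagonal of equal values, with a member median of 0.52 in gelADSC library 2 and 2.60 in gelADSC library 3, while all tested genes centre on -0.29 and -0.20, and 65 tested genes lie outside the plotted range.

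The size of that gap differed among members by more than counting error. Whole read numbers were inferred for all 56 members from the steps of their FPKM together with exon lengths. Intervals below are exact at 95% for those reads and cover counting error only. The level in gelADSC library 3 over that in gelADSC library 2 ran from 0.859 (Mybl2) to 23.9 (Plk1), with a median of 6.84. For 55 members the interval lay above 1. Cenpm, at 1.47 (interval 1.23 to 1.77), Spc24, at 1.90 (1.65 to 2.18), and Pttg1, at 1.28 (1.09 to 1.51), were under 2 with Mybl2. Cenpk followed at 3.06 (2.12 to 4.48), and its interval overlapped that of Spc24. Next came Smc4 at 3.46 (3.10 to 3.86), with an interval above that of Spc24. At the other end 17 members were at least 10 times higher, among them Cdc20, at 21.3 (17.2 to 26.6), and Ube2c, at 22.1 (16.6 to 30.2). The intervals of Plk1, Cdc20 and Ube2c overlapped each other, so their order is not resolved. By role the median was 10.6 for the spindle and cytokinesis proteins and 13.7 for the anaphase regulators. It was 6.82 for the kinesins, 6.65 for the kinases, 5.50 for the kinetochore proteins, 5.13 for the passenger subunits and 4.65 for the condensin group.

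**Figure D4:**
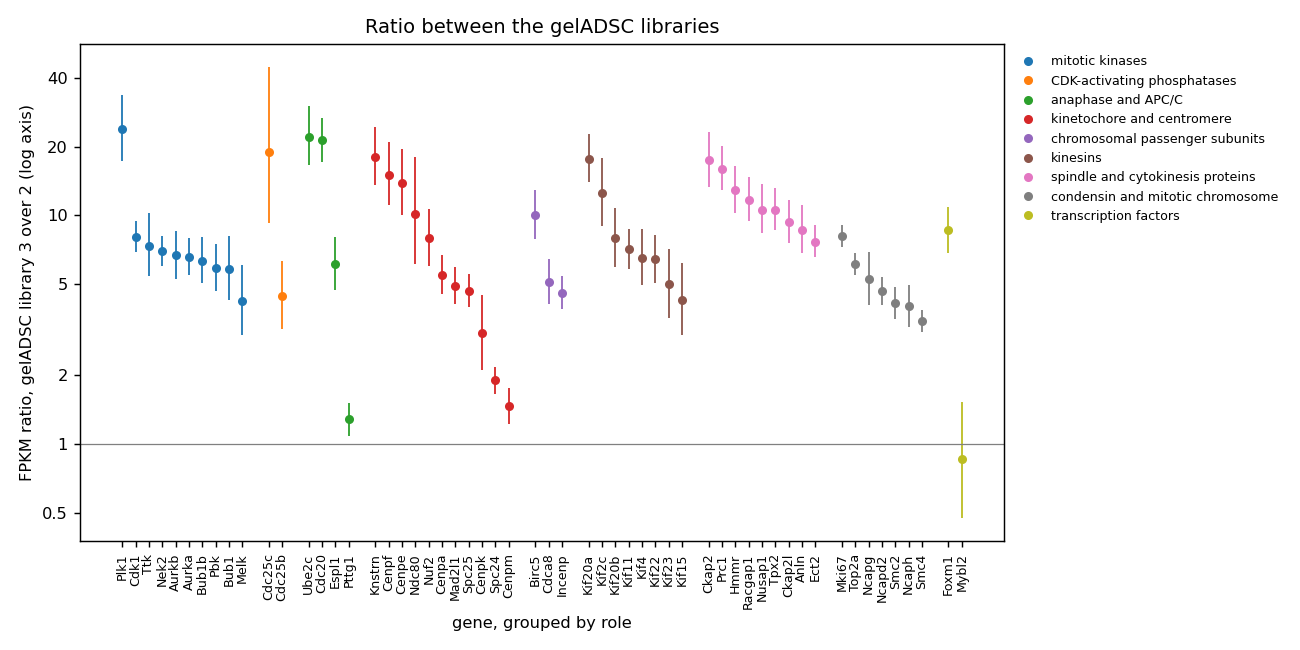
Level in gelADSC library 3 over that in gelADSC library 2 for each member, by role on a log axis, with exact 95% counting intervals as bars. Cenpm, Spc24, Pttg1 and Mybl2 lie under 2, and Plk1, Ube2c and Cdc20 lie above 20.

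The number of members called depended on the setting. Across 13 settings the number of members called higher ran from 2 to 43, and 0 were called lower in each. With median ratio scaling, which removes the shift of all genes, with quantile normalization, with a pseudocount of 5, with no filter and without either control library, the count was 2, namely Cenpm and Spc24. Without gelADSC library 3, 20 members were called, and without gelADSC library 2, 43 of 44 were, all but Pttg1. Of all genes tested in the same settings, 8.81% (median ratio scaling), 8.37% (quantile normalization), 6.36% (pseudocount of 5) and 2.99% (no filter) were called higher. A pseudocount of 0.1 gave 28 members against 7.39% of genes, scaling to TPM 27 against 7.44%, a filter at 0.1 FPKM 4 against 5.38%, and limma without its trend 11 against 6.93%. With a library left out the share of genes was 7.36% (gelADSC library 2), 6.68% (gelADSC library 3), 2.52% (control library 1) and 4.99% (control library 3). In fits without a library the lone library of that group is assumed to vary like the other group.

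**Figure D5:**
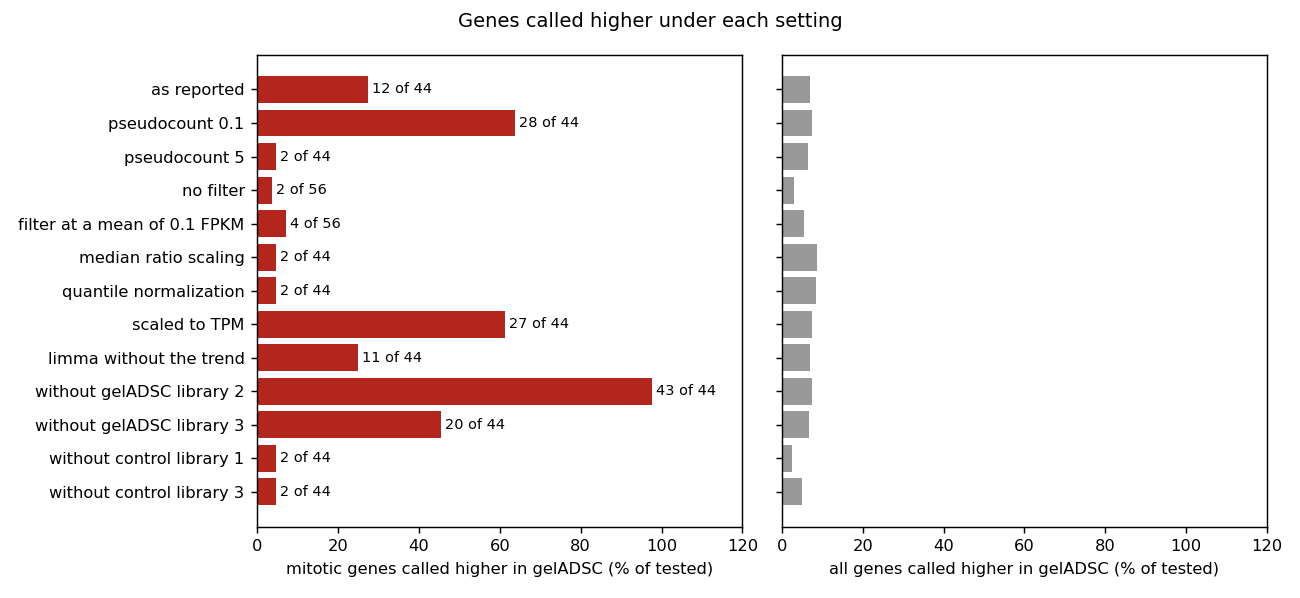
Left, bars give the percentage of tested members called higher in gelADSC (limma adjusted p under 0.05) in each of 13 settings. The number called and the number tested stand beside each bar. Right, bars give the percentage of all tested genes called higher in the same settings. The count is 12 as reported, 2 in 6 settings and 43 without gelADSC library 2.

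Genes that work beside the members were read from further lists. Of 52 other kinetochore, spindle and cytokinesis genes limma called 11 of 32 tested higher and 1 lower, against 6.92% and 17.5% of all tested genes. All 11 called higher had a control mean under 1 FPKM. They passed the filter only through gelADSC, so nothing is read from that share. The median log2 change of the 52 was 1.01. In 51 of the 52, gelADSC library 3 was above gelADSC library 2, against 57.9% of genes above 0. Both gelADSC libraries were above both controls for 43 of the 52, against 20.4% of genes. Cdca3, a trigger of mitotic entry, read 3.03 and 44.4 FPKM in gelADSC, against 0.944 and 0.891 FPKM in control (log2 change 2.82, SE 0.88, limma adjusted p = 0.0481). Ccna2, cyclin A2, read 1.66 and 15.2 FPKM in gelADSC, against 0.232 and 0.570 FPKM in control (log2 change 2.24, SE 0.68, limma adjusted p = 0.0435). Both have the shape of the members, high in gelADSC library 3, and neither call held without control library 1 (adjusted p = 0.292 and 0.305) or without control library 3 (0.205 and 0.163). Both calls also ended with median ratio scaling (0.128 and 0.119), quantile normalization (0.136 and 0.133), a pseudocount of 5 (0.101 and 0.0967), no filter (0.188 and 0.174) and a filter at 0.1 FPKM (0.0868 and 0.0786), and that of Cdca3 without the trend (0.0530). Zwint, a kinetochore protein, was the gene called lower. It read 15.7 and 20.2 FPKM in gelADSC, against 47.4 and 32.9 FPKM in control (log2 change -1.11, SE 0.23, limma adjusted p = 0.0124), and was not called without control library 1 (adjusted p = 0.115) or with no filter (0.0609).

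Median changes were smaller in the lists of kinetochore linkers, cohesin and APC/C subunits. Of the 11 genes of the Mis12, RZZ and checkpoint complexes, which link kinetochores to microtubules and to the checkpoint, limma called 0 of 9, with 2 higher and 0 lower at an unadjusted p under 0.05. The 2 were Dsn1 and Zwilch, which read under 1 FPKM in both controls and passed the filter only through gelADSC. The median log2 change of the 11 was 0.52. In all 11, gelADSC library 3 was above gelADSC library 2, against 57.9% of genes above 0. The ratio ran from 1.21 to 4.97, with a median of 2.47. Of all tested genes 6.92% were called higher and 17.5% lower, and at an unadjusted p under 0.05 10.4% were higher and 29.5% lower. Cohesin genes, which hold sister chromatids together, had 0 of 10 called, with 1 higher and 0 lower at an unadjusted p under 0.05, and a median of 0.23. Among the 14 core subunits of the APC/C and its activator Cdh1, limma called 0 higher and 1 lower, with 0 and 3 at an unadjusted p under 0.05. Their median was -0.24, close to that of all tested genes. Anapc4, the gene called lower, read 5.61 and 6.86 FPKM in gelADSC, against 15.6 and 11.0 FPKM in control (log2 change -0.97, SE 0.23, limma adjusted p = 0.0191). That call ended without control library 1 (adjusted p = 0.139), without gelADSC library 2 (0.0799) and with no filter (0.0746). Over the whole APC/C list the level in gelADSC library 3 was 0.898 to 1.39 times that in gelADSC library 2. Over the cohesin list it was 0.999 to 2.06 times.

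Of 18 genes of the DREAM and MuvB complexes and of the E2F family, limma called 2 of 17 higher and 1 lower, against 6.92% and 17.5% of all tested genes. Of those called higher, E2f8 had a control mean under 1 FPKM and passed the filter only through gelADSC. E2f8, an atypical E2F that represses transcription late in S phase, read 9.05 and 10.8 FPKM in gelADSC, against 0.680 and 0.688 FPKM in control (log2 change 2.69, SE 0.21, limma adjusted p = 0.000156). It was alike in both gelADSC libraries and was called in all 13 settings, with an adjusted p of at most 0.0168. E2f1, an activator of genes of S phase, read 3.19 and 5.17 FPKM in gelADSC, against 1.28 and 1.53 FPKM in control (log2 change 1.08, SE 0.25, limma adjusted p = 0.0181). E2f3, also classed as an activator, read 1.81 and 1.85 FPKM in gelADSC, against 3.96 and 3.40 FPKM in control (log2 change -0.72, SE 0.21, limma adjusted p = 0.0394). The calls of E2f1 and E2f3 did not hold without control library 1 (adjusted p = 0.145 and 0.164), without control library 3 (0.0611 and 0.0593) or without gelADSC library 3 (0.0527 and 0.120), and that of E2f3 also not without gelADSC library 2 (0.144). With no filter both calls ended (0.0828 and 0.106), and that of E2f3 ended with median ratio scaling (0.0563) and a filter at 0.1 FPKM (0.0561).

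Markers of other cells that can divide in a liver were read beside the members, and their part in the result was not tested. Counts of markers above or below both controls stand beside 20.4% (above) and 38.9% (below) of all genes above 0. Summed FPKM of 7 erythroid markers was 52.3 and 46.6 in gelADSC, against 27.9 and 25.7 in control, with 4 of 7 above and 1 below. Alas2, the heme synthesis enzyme of red cell precursors, read 40.1 and 38.9 FPKM in gelADSC, against 11.0 and 9.99 FPKM in control (limma adjusted p = 0.000531). Tfrc, the transferrin receptor, went the other way, with 10.2 and 5.89 FPKM in gelADSC, against 16.3 and 15.1 FPKM in control (log2 change -0.93, limma adjusted p = 0.0317). Ermap, a membrane protein of red cells, was listed at 0 in all but gelADSC library 2, where it was near 0. Summed markers of T, B and NK cells were 1.81 and 2.76 FPKM in gelADSC, against 0.259 and 0.236 FPKM in control, with 6 of 7 above and 0 below. Each of these 7 markers read under 1 FPKM in every library, near the floor, and none was tested.

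Monocyte and neutrophil markers summed to 73.2 and 26.2 FPKM in gelADSC, against 73.6 and 69.1 FPKM in control, with 0 of 7 above and 4 below. Kupffer cell markers gave 262 and 146 FPKM in gelADSC, against 193 and 240 FPKM in control, with 2 of 6 above and 1 below. Stellate cell markers gave 29.2 and 30.7 FPKM in gelADSC, against 20.3 and 12.7 FPKM in control, with 4 of 6 above and 0 below. Endothelial markers gave 90.4 and 86.8 FPKM in gelADSC, against 84.0 and 77.8 FPKM in control, with 3 of 6 above and 2 below. Cholangiocyte markers gave 55.7 and 48.0 FPKM in gelADSC, against 158 and 301 FPKM in control, with 0 of 5 above and 2 below. That sum was nearly all Spp1, or osteopontin, with 52.1 and 43.5 FPKM in gelADSC, against 150 and 298 FPKM in control (limma adjusted p = 0.00245), while Epcam, Krt7 and Krt19 were not called. Stromal markers that ADSC carry gave 68.4 and 43.4 FPKM in gelADSC, against 102 and 70.4 FPKM in control, with 1 of 8 above and 4 below. Hepatocyte markers were high throughout, as Alb with 22023 and 38330 FPKM in gelADSC, against 28129 and 31907 FPKM in control, with 3 of 8 above and 4 below.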

How the data were processed

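RNA was measured in 4 mouse liver samples, 2 gelADSC and 2 control. Per the labels' protocols, total RNA was taken with an RNeasy Mini kit and made into libraries with TruSeq stranded mRNA reagents. The deposited table gives 1 value per symbol and library and its header names no unit. The values were taken as FPKM made by the authors with Cufflinks 2.2.1, which stands with TopHat2 2.1.1 and Trimmomatic 0.38 in the submitters' processing notes, without order or settings. The only build in these notes is the human hg19, which mouse symbols cannot come from, and the annotation is not given in the sources used here. Column numbers (2 and 3 for gelADSC, 1 and 3 for control) do not match the sample titles (1 and 2 in both), so columns were assigned to groups only.

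FPKM were used without rescaling as log2(FPKM + 1), with a pseudocount of 1, for the 11070 genes whose mean reached 1 FPKM. A two-sided limma test (version 3.58.1, R 4.3.3, with trend) was run over them, and p-values were adjusted by Benjamini-Hochberg over all 11070. The fit was also run on simulated data, with changes planted only in higher genes without the widest spread. That run did not cover low genes with a wide spread, as many members are. Count models were not used. The members and lists were chosen with earlier results of these data known, so no list was tested. Genes given in full are the called members and, in each role, the 3 with the highest mean. From each further list they are the called genes, or, where more than 5 were called, the 3 highest of these and the largest fall. Others named were chosen after their values were seen. 1 of 221 list genes was found under a synonym.

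Depth was inferred from the steps of the FPKM and GENCODE M21 exon lengths over 1037 genes, of which 349 agreed in the most frequent bin, so totals are approximate. Members' reads were recovered with a tolerance of 0.003 of a read from whole numbers, and ratios between libraries carry exact Clopper-Pearson intervals. The smallest whole reads were multiplied by 2 for Aurka, Plk1, Bub1, Melk, Spc24 and Ckap2l and by 3 for Cdc25b. The multiplier was chosen so that the implied exon length was a whole number near the GENCODE M21 lengths. Since the authors' annotation is not known, the reads and interval widths of these genes rest on that choice. The median member had 82.5 (gelADSC 2) and 573 (gelADSC 3) reads, against 18 and 19 in the controls, and 9 members had under 10 reads in both controls together. Promoter windows are RefSeq, GRCm38.p6. For 47 of 51 member windows the bases after the start were found in a GENCODE transcript of the gene in the same direction. Members with near-identical copies elsewhere were not screened for.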

Additional observations from a re-analysis of the deposited data

How the results depend on the processing

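Without a library, the members called higher numbered 2 to 43, all genes called higher 279 to 815 and all genes called lower 326 to 1765. The main counts were 12, 766 and 1936. Members called higher numbered 28 with a pseudocount of 0.1, 27 after scaling to TPM, and 4 of 56 with a filter at 0.1 FPKM. They numbered 2 with a pseudocount of 5, with no filter (of 56), after median ratio scaling and after quantile normalization. A fit without the trend gave 11. The causes were not tested. All genes called lower numbered 730 with no filter, 930 after median ratio scaling and 1001 after quantile normalization. Calls were then 41.8%, 51.2% and 48.1% higher, against 28.3% as reported. The median member difference, gelADSC library 3 minus gelADSC library 2, was 2.69 with a pseudocount of 0.1, 1.11 with a pseudocount of 5, 1.93 with median ratio scaling and 2.37 after scaling to TPM, against 2.00. No member's called change took the opposite sign in any setting, and Cenpm and Spc24 were called in all 13.

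With 2 libraries a group, the spread rests on moderation across genes. Depth limits the controls most, where 35 of 56 members had under 50 reads in both together. No paired analysis was possible because the columns of the groups share only 1 number, and these numbers do not match those of the sample titles.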

Other observations

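Outside the members and lists, 16 genes also stood at least 2 higher on log2(FPKM + 1) in gelADSC library 3 than in gelADSC library 2, and those named here were chosen after their values were seen. Cdkn3, a phosphatase that acts on cyclin-dependent kinases, read 1.01 and 13.7 FPKM in gelADSC, against 0.0649 and 0.357 FPKM in control. Stmn1, which destabilizes microtubules, read 7.15 and 43.1 FPKM in gelADSC, against 4.31 and 3.96 FPKM in control. Iqgap3, a scaffold protein of proliferating cells, read 0.621 and 7.18 FPKM in gelADSC, against 0.00884 and 0.0389 FPKM in control. These have the library pattern of the mitotic genes.

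Cdkn1a, the inhibitor p21 of cyclin-dependent kinases, shared the gap between the gelADSC libraries but not the direction from control. It read 5.56 and 40.5 FPKM in gelADSC, against 133 and 101 FPKM in control, so that both gelADSC libraries lay below both controls. Tubb6, a beta tubulin, read 11.9 and 56.4 FPKM in gelADSC, against 77.7 and 49.9 FPKM in control, with gelADSC library 3 inside the control range. A gap between these libraries was therefore also present in genes that were not higher in gelADSC.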
